A study of Mus musculus with 24 samples.

Results

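The genes described here encode the factors that start protein synthesis. They were chosen by name from both deposited tables of gene expression in mouse pluripotent stem cells. Every gene whose symbol begins with Eif and a family number from 1 to 6 was taken, apart from the Eif2ak kinases, Eif4ebp1, Eif2s3x, Eif2s3y, genes named as pseudogenes, and genes with a mean normalized count under 10 in a table. The rule left 50 members of the 26338 genes listed in either table. All 50 were members in the second table and 46 of them in the first, and the other 4 (Eif1ad3, Eif1ad7, Eif1ad8 and Eif4e1b) were members in the second table only. The measured minimum fell close to a single gene: Eif4e1b had a mean of 10.2 in the second table and was kept, and a mean of 8.08 in the first and was dropped. In the same way Eif4ebp3 was dropped with means of 6.95 and 6.60.

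The first table held 6 poly(A) RNA libraries of the wild-type mouse embryonic stem cell (ESC) line J1: untreated ESCs grown with serum, LIF and the inhibitor pair known as 2i, and expanded potential stem cells (EPSCs) made from them by the Deng protocol (D-EPSCs) or the Liu protocol (L-EPSCs). The D-EPSC medium added LIF, CHIR99021, dimethindene maleate and minocycline hydrochloride. The L-EPSC medium added LIF, CHIR99021, PD0325901, A-419259, XAV939, JNK inhibitor VIII and SB203580. The second table held 18 libraries of the tet-off knockin lines ZHBTc4 (Oct4-cKO), 2TS22C (Sox2-cKO) and NgcKO (Nanog-cKO), each as ESCs, as untreated L-EPSCs and as L-EPSCs given doxycycline (Dox). In each line the named endogenous gene is null in all 3 states, and a transgene that Dox switches off keeps the cells supplied, so each factor was examined in 1 engineered line. Each of the 12 groups had 2 replicates, which were not stated to come from separate derivations, and p-values then measure the spread between those libraries, which may be technical. The labels did not give the length of the Dox treatment.

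Initiation factors bring the messenger RNA, the initiator methionyl-tRNA and the ribosomal subunits together. eIF2 carries the initiator tRNA as a GTP complex that eIF2B recharges, eIF1, eIF1A, eIF3 and eIF5 assemble on the small subunit and govern the choice of the start codon, and eIF4E, eIF4G and eIF4A bind the cap and unwind the leader of the message. eIF5B joins the large subunit, eIF6 keeps free large subunits apart, and eIF5A acts mainly in elongation. Pluripotent cells are known to keep protein synthesis under tight control, and the supply of these factors is part of that control.

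Reads on genes per library ran from 11612919 to 15069899 in the first table and from 10807631 to 14798984 in the second. Fibroblast RNA was scarce in the tet-off lines: the summed normalized count of 8 fibroblast markers, of which 7 were listed, lay between 106 and 492 in the 18 libraries, with Dcn at 0 or not listed in every group and Lum in 8 of 9 groups. The macrophage sum there lay between 183 and 758. The J1 libraries differed. Their fibroblast sum was 89607 and 91702 in ESCs, 56111 and 56297 in D-EPSCs and 18714 and 19302 in L-EPSCs, although the methods describe EPSCs grown without feeders before collection. The sum of 5 macrophage markers was 2330 and 2353 in J1 ESCs, 19103 and 19335 in D-EPSCs and 15138 and 15242 in L-EPSCs. All 8 pluripotency markers were detected in every group. The targeted genes followed the labels: with Dox, Pou5f1 was 162 and 184 in Oct4-cKO cells against 6420 and 6316 without it, Sox2 was 47.0 and 53.1 in Sox2-cKO cells against 4966 and 4701, and Nanog was 3166 and 3112 in Nanog-cKO cells against 9119 and 8847. In bulk RNA, fewer cells of a type and less RNA per cell cannot be told apart. The 2 tables were normalized separately, so no level was tested across them.

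The members varied less across the J1 groups than across the more numerous tet-off groups. Between the highest and the lowest group mean, the median member varied 1.23-fold across the 3 J1 groups and 1.63-fold across the 9 tet-off groups, where 49 members had a fold and Eif4e1b fell to 0 reads in some groups. In J1 cells, 37 of 46 members varied by less than 1.5-fold and 5 by more than 2-fold, and in the tet-off lines, 13 of the 49 varied by less than 1.5-fold and 17 by more than 2-fold. The median coefficient of variation between replicates was 1.61% and 2.30%. Per kilobase of exon, the helicase gene Eif4a1 was the most abundant member in both tables, with a mean level over groups of 6307 in J1 and 4617 in the tet-off lines, and Eif5a came next with 6207 and 4546. The lowest members with a length were Eif5a2 in J1, at 36.3 normalized counts per kilobase, and Eif4e1b in the tet-off lines, at 4.53.

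Some members share sequence with other genes, which limits what their values mean. Of 49 members with an annotated coding transcript, 38 had no 50-base window in common with a coding transcript of another gene. A further 7 had more than 10% of their windows in common with one. The shares were 80.7% for Eif1ad3, 81.9% for Eif1ad7, 30.1% for Eif1ad8, 90.8% for Eif3j2, 39.4% for Eif3j1, 31.3% for Eif1 and 18.2% for Eif4a3. Values of these 7 are uncertain, since counting could have moved or lost their reads. Pseudogenes and noncoding transcripts were not searched, so the other members may share sequence with those.

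Eif4a1 and Eif4a2 encode the paralogous DEAD-box helicases of the eIF4F complex. Eif4a1 lies at chr11:69480438-69485925 on the minus strand and Eif4a2 at chr16:23107517-23114209 on the plus strand (NCBIM37). None of the 50-base windows of either transcript occurred in a coding transcript of another gene. The exons of Eif4a2 overlap Rfc4 on the opposite strand and small nucleolar RNA genes over 705 bases, those of Eif4a1 overlap small nucleolar RNA genes over 287 bases, and the strand setting of the counting was not stated. The 250 bases before each annotated start are shown because the RNA of the genes diverged across these states. They come from RefSeq (GRCm38.p6), read 5′ to 3′ on the strand of the gene, and capitals mark the E box CACGTG, the site of Myc and related factors.
Eif4a1, chr11:69672424-69672673, minus strand: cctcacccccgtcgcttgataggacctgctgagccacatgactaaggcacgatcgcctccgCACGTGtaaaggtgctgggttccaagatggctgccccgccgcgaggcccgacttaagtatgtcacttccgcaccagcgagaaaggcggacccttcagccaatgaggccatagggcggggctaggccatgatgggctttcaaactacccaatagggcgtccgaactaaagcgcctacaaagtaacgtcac
Eif4a2, chr16:23107218-23107467, plus strand: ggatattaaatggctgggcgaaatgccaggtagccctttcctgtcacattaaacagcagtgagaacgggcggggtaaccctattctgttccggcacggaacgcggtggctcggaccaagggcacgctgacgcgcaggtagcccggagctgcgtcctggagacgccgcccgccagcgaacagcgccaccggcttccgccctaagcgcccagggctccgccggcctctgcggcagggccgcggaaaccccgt
The G and C content was 58.8% for Eif4a1 and 66.4% for Eif4a2, and the letters CACGTG occur in the first window and not in the second.

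Eif4a2 RNA rose in the conversion of every tet-off line, while Eif4a1 changed little. In Oct4-cKO cells the normalized count of Eif4a2 was 8796 and 9098 in ESCs against 17379 and 17349 in L-EPSCs, a log2 fold change of 0.96 (limma: SE 0.028 and adjusted p = 1.19e-13). In Sox2-cKO cells it was 7955 and 7946 in ESCs against 13606 and 13904 in L-EPSCs, a log2 fold change of 0.79 (limma: SE 0.028 and adjusted p = 3.27e-12). In Nanog-cKO cells it was 9355 and 9265 in ESCs against 13765 and 13680.4 in L-EPSCs, a log2 fold change of 0.56 (limma: SE 0.028 and adjusted p = 7.98e-11). L-EPSCs were higher than ESCs in each line with no overlap. The rise differed between lines by the adjusted p of limma alone: it was larger by 0.17 in Oct4-cKO than in Sox2-cKO cells (adjusted p = 0.0066), by 0.40 in Oct4-cKO than in Nanog-cKO cells (adjusted p = 1.36e-06) and by 0.23 in Sox2-cKO than in Nanog-cKO cells (adjusted p = 3.53e-04). Each of these was below the size of 0.6 required further down for a difference between lines.

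Eif4a1 RNA fell slightly in the same conversions or did not pass the test. Its normalized count was 22424 and 21706 in Oct4-cKO ESCs and 19293 and 19124 in their L-EPSCs (log2 fold change -0.20, limma adjusted p = 3.40e-07). It was 18305 and 18089.6 in Sox2-cKO ESCs and 18826 and 18792 in L-EPSCs (0.05, limma adjusted p = 0.0772), and 23901 and 24498 in Nanog-cKO ESCs and 23233 and 23461 in L-EPSCs (-0.05, limma adjusted p = 0.0486). Eif4a3, the paralog that sits in the exon junction complex, fell in all 3 lines, by 0.85, 0.46 and 0.33 on the log2 scale. Rfc4, which overlaps Eif4a2, had a log2 fold change of 0.68, 0.09 and 0.22 in the Oct4-, Sox2- and Nanog-cKO conversions.

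With Dox, Eif4a2 fell again. Its normalized count was 9151 and 9209.9 in Dox-treated Oct4-cKO L-EPSCs, 8354 and 8379 in Sox2-cKO cells, and 10650.3 and 11464 in Nanog-cKO cells. Against the untreated L-EPSCs above, it changed on the log2 scale by -0.92 (limma: SE 0.028 and adjusted p = 1.26e-13), -0.72 (limma: SE 0.028 and adjusted p = 5.03e-12) and -0.31 (limma: SE 0.028 and adjusted p = 4.32e-07). The conversion and the Dox comparison share the untreated L-EPSC libraries, so high values there enter both. Eif4a1 with Dox was 19739 and 19678 in Oct4-cKO cells, 14949 and 14749 in Sox2-cKO cells and 19562 and 19880.5 in Nanog-cKO cells, with log2 fold changes of 0.04 (limma adjusted p = 0.159), -0.34 and -0.24. Rfc4 had log2 fold changes of 0.06, -0.11 and 0.00 with Dox, none of which passed the test.

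The ratio of the 2 helicase messages needs no size factor. As a ratio of normalized counts, Eif4a2 to Eif4a1 was lowest in J1 cells, at 0.291 ± 0.0022 in ESCs, 0.335 ± 0.0024 in D-EPSCs and 0.304 ± 0.0030 in L-EPSCs (SD, n = 2). In the tet-off ESCs it was 0.406 ± 0.019 (Oct4-cKO), 0.437 ± 0.0033 (Sox2-cKO) and 0.385 ± 0.0093 (Nanog-cKO). In the untreated L-EPSCs it was 0.904 ± 0.0045, 0.731 ± 0.012 and 0.588 ± 0.0066 in the same order, the 3 highest of the 12 groups. With Dox it was 0.466 ± 0.0031, 0.563 ± 0.0066 and 0.561 ± 0.023. Per kilobase of exon Eif4a1 exceeded Eif4a2 in all 12 groups, with a ratio of 0.734 in Oct4-cKO L-EPSCs and 0.236 in J1 ESCs. The order of the groups was read from levels, and Sox2-cKO and Nanog-cKO cells with Dox lay within their spread of each other.

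On the log2 scale the ratio rose by 1.16 (SE 0.048), 0.74 (SE 0.019) and 0.61 (SE 0.027) in the conversion of the Oct4-, Sox2- and Nanog-cKO lines. It fell by 0.96 (SE 0.0086), 0.38 (SE 0.021) and 0.069 (SE 0.043) with Dox. In J1 cells the differences were 0.20 for D-EPSCs against ESCs, 0.064 for L-EPSCs against ESCs and -0.14 for L-EPSCs against D-EPSCs. The replicates of the groups compared did not overlap in any of these 9 comparisons, and the exact two-sided permutation test gave p = 0.333 in each, the smallest value that 2 against 2 libraries allow. The difference with Dox in Nanog-cKO cells was less than 2 of its standard errors and ranged from -0.11 to -0.028 when a library was left out.

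**Figure D1:**
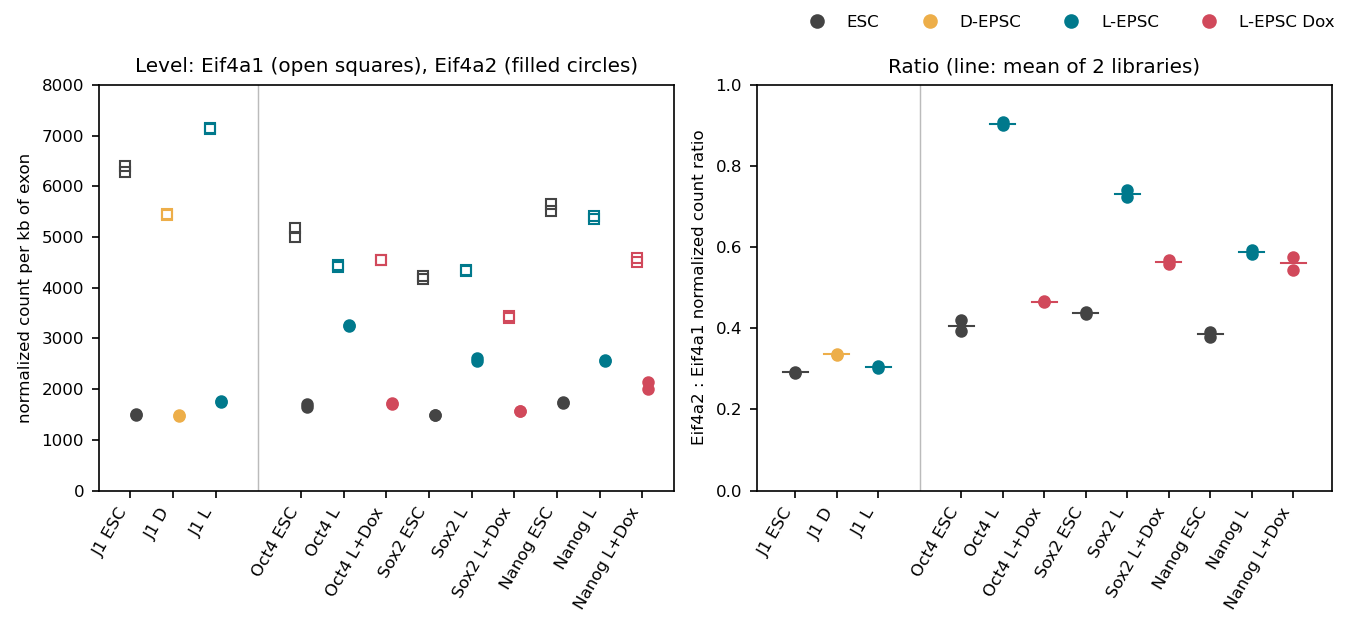
Eif4a1 (open squares) and Eif4a2 (filled circles) in normalized counts per kilobase of exon (left), and the ratio of their normalized counts (right), in each library of 12 groups, with a line at the mean of 2 libraries on the right and a grey line between the separately normalized tables. Eif4a1 lies above Eif4a2 in every library, and the ratio is highest in untreated tet-off L-EPSCs (0.904, 0.731 and 0.588) and lowest in the J1 groups (0.291 to 0.335).

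The conversion of tet-off ESCs to L-EPSCs moved many members by small amounts. A member is called here where its limma adjusted p was under 0.05 and its log2 fold change passed 0.6, and is said to rise or fall where it met the first condition alone. In Oct4-cKO cells 5 of 50 members (10%) were called higher and 8 (16%) lower, against 13% and 15.4% of all genes tested. In Sox2-cKO cells the counts were 4 (8%) and 5 (10%), against 7.99% and 11.6%. In Nanog-cKO cells they were 6 (12%) and 7 (14%), against 12.2% and 14.7%. The called shares were therefore close to those of all genes. By the adjusted p alone, 16 rose and 25 fell in Oct4-cKO cells (32% and 50%, against 21.4% and 22.6% of all genes), 18 and 16 in Sox2-cKO cells (36% and 32%, against 17.8% and 18.7%), and 18 and 21 in Nanog-cKO cells (36% and 42%, against 20.8% and 21.9%). Here and below, all genes means every gene with more than 1 read, while members had a mean of at least 10. The shares are therefore not matched for expression level, and the part of that level in them was not tested. The median log2 fold change of the members was -0.16, -0.013 and 0.034. With median centring 12 rose and 29 fell in Oct4-cKO cells, 18 and 16 in Sox2-cKO cells, and 16 and 21 in Nanog-cKO cells. Sums of cell type markers moved with the conversion. That of 8 primitive endoderm markers went from 7096 and 7208 to 19202 and 19316 in Oct4-cKO cells, from 5214 and 5395 to 11475 and 11301 in Sox2-cKO cells and from 2611 and 2568 to 4534 and 4532 in Nanog-cKO cells. That of 8 trophoblast markers went from 2757 and 2746 to 5807 and 5686, from 6625 and 6695 to 3441 and 3512, and from 1438 and 1424 to 3016 and 3022 in the same order. That of 8 pluripotency markers went from 73474 and 73153 to 44220 and 43753, from 57444 and 56901 to 46658 and 46300.3, and from 82397 and 83476 to 47065 and 46976. Single trophoblast markers did not all follow their sum. In Sox2-cKO cells Krt8 fell with it, from 2715 and 2621 to 737 and 787, while Gata3 went from 105 and 105 to 136 and 123. In Nanog-cKO cells Krt8 went against it, from 234 and 219 to 187 and 165, while Gata3 rose with it. The part of these markers in the results was not tested. The split of Nanog-cKO calls, 6 higher and 7 lower, became 7 and 5 with TMM scaling.

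In all 3 lines, 10 members (20%, against 10.1% of all genes) rose and 9 (18%, against 9.41%) fell. Those that rose were Eif1b, Eif2s2, Eif3d, Eif3f, Eif3h, Eif3i, Eif3m, Eif4a2, Eif4e and Eif5a2. Those that fell were Eif1ad, Eif2d, Eif3a, Eif3b, Eif3l, Eif4a3, Eif4e2, Eif4g1 and Eif6. Members of the same complex stand on both sides of this division, among them subunits of eIF3 and the paralogs Eif4e and Eif4e2.

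**Figure D2:**
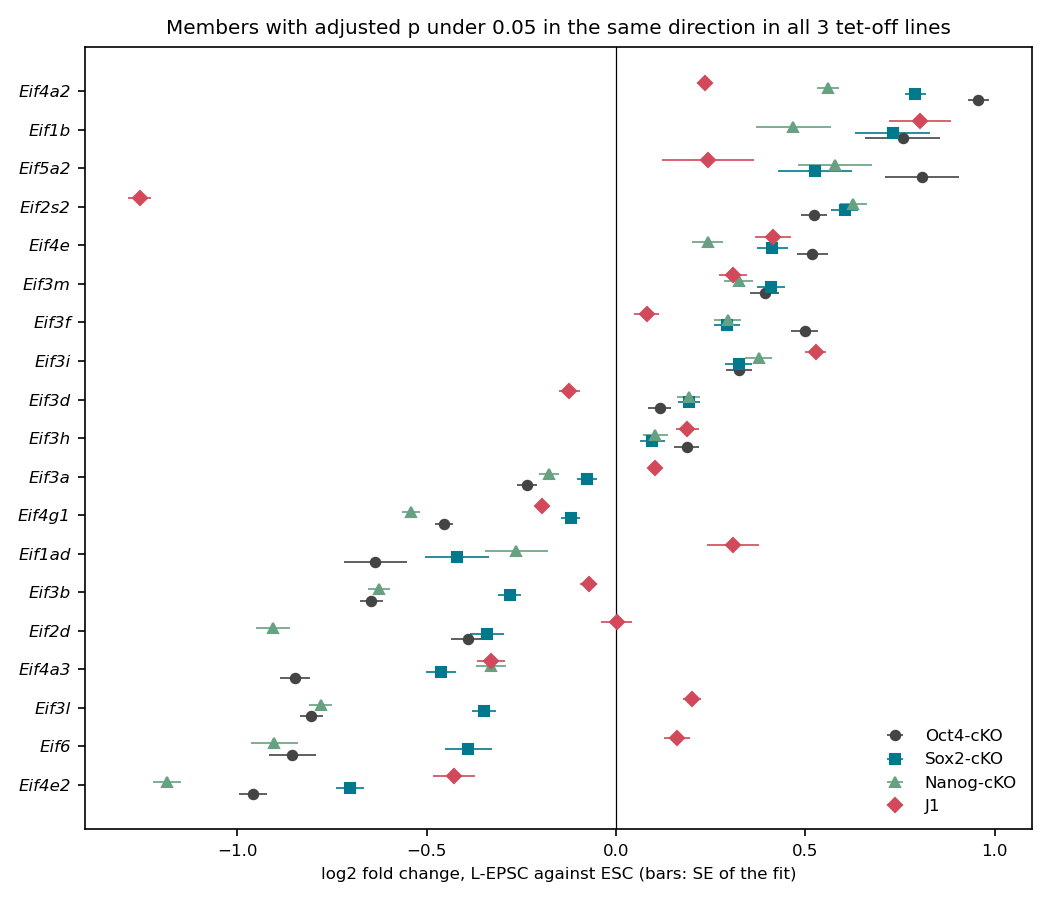
Log2 fold change of L-EPSCs against ESCs (horizontal axis, bars are the SE of the fit) for the 19 members that passed limma in the same direction in all 3 tet-off lines, with J1 shown beside them from its own table. Eif4a2 lies at 0.96, 0.79 and 0.56 in the tet-off lines and Eif4e2 at -0.96, -0.70 and -1.19, while J1 falls on the opposite side for Eif2s2 (-1.26).

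Among the cap-binding proteins, Eif4e rose and Eif4e2 fell in all 3 lines, while Eif4e3 and Eif4e1b rose in some lines and did not pass the test in the others. Eif4e, the cap-binding subunit of eIF4F, was 1585 and 1655 in Oct4-cKO ESCs and 2290.3 and 2353 in L-EPSCs, and rose by 0.52, 0.41 and 0.24 on the log2 scale in the Oct4-, Sox2- and Nanog-cKO lines. Eif4e2, which binds the cap without eIF4G and is known as a translational repressor, fell in all 3 lines and was called in each. It was 1989 and 2070.1 in Oct4-cKO ESCs against 1069 and 1018 in L-EPSCs (-0.96, with SE 0.038 and adjusted p = 3.13e-12 by limma). It was 2176 and 2240.4 against 1363 and 1348 in Sox2-cKO cells (-0.70, with SE 0.038 and adjusted p = 3.27e-10 by limma), and 3174 and 3121 against 1376 and 1391 in Nanog-cKO cells (-1.19, with SE 0.038 and adjusted p = 3.07e-13 by limma). L-EPSC levels of Eif4e2 thus lay between 1018 and 1391 in all lines, while the ESC levels were spread more widely.

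The rarer cap binders Eif4e3 and Eif4e1b had few reads. Eif4e3 was called higher in Oct4-cKO L-EPSCs (0.91, limma adjusted p = 0.0042) and Nanog-cKO L-EPSCs (1.55, limma adjusted p = 3.56e-05), where it went from 20.9 and 25.8 to 71.4 and 68.3. In Sox2-cKO cells it was 24.2 and 25.1 against 23.8 and 18 and did not pass the test. Eif4e1b, a germ-cell relative of eIF4E, had 11 and 14 reads in Oct4-cKO ESCs and 36 and 29 in L-EPSCs, a ratio of normalized counts of 2.31 (95% counting interval 1.44 to 3.83). Its limma call there (log2 fold change 1.15, adjusted p = 0.0487) was lost without replicate 1 of the L-EPSCs (adjusted p = 0.0823) or of the ESCs (0.0582), and with DESeq2 (0.072), and over 12 alternatives its adjusted p ran from 0.0251 to 0.304. In Sox2-cKO cells it had 2 and 2 reads in ESCs against 35 and 37 in L-EPSCs, a ratio of 20.0 (interval 7.49 to 75.4). In Nanog-cKO cells it had 0 and 0 reads in ESCs against 1 and 1 in L-EPSCs, under the limit of 3 reads per library that a count of 0 allows, so no fold is given. These intervals cover counting error only. Eif4e1b met the minimum mean only through the groups where it was high, with a mean of 37.4 in Sox2-cKO L-EPSCs. Its calls are therefore not independent of the rule that made it a member.

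The scaffolds that join the cap to the ribosome moved unevenly. Eif4g1, the main eIF4G, was 14518 and 14659 in Oct4-cKO ESCs and 10621 and 10678 in L-EPSCs, and its log2 fold change was -0.45, -0.12 and -0.54 in the Oct4-, Sox2- and Nanog-cKO lines. Eif4g2, which lacks the eIF4E site and serves cap-independent initiation, changed by -0.49 and -0.60 in Oct4-cKO and Nanog-cKO cells and by -0.06 (limma adjusted p = 0.0624) in Sox2-cKO cells. Its call in Nanog-cKO cells lay at the threshold and was lost with TMM scaling (-0.56), without replicate 2 of the L-EPSCs (-0.59) or without replicate 1 of the ESCs (-0.58). Eif4g3, the third paralog, went in opposite directions. It rose in Oct4-cKO cells (925 and 882 to 1134 and 1152, log2 fold change 0.34) and in Nanog-cKO cells (592 and 582 to 917 and 919, 0.64), and fell in Sox2-cKO cells (1807 and 1902 to 1065 and 1099, -0.78, limma adjusted p = 5.39e-10). The L-EPSC levels of Eif4g3 lay between 917 and 1152 in all 3 lines, and the Sox2-cKO ESCs stood apart from the other ESCs. The eIF4A cofactors Eif4b and Eif4h changed by at most 0.26 in either direction in the 3 conversions.

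Of the factors on the small subunit, Eif1b and the eIF2 beta subunit rose. Eif1b, the paralog of the start-codon factor Eif1, was 203 and 231 in Oct4-cKO ESCs and 347 and 387 in L-EPSCs, and its log2 fold change was 0.76, 0.73 and 0.47 in the 3 lines. Eif1 changed by 0.13, 0.31 and -0.15. Eif2s2, the beta subunit of eIF2, was 9094 and 9155 in Oct4-cKO ESCs and 13271 and 12959.6 in L-EPSCs (log2 fold change 0.52, limma adjusted p = 2.39e-09). It was 7839 and 7708 against 11641 and 11989.6 in Sox2-cKO cells (0.60, limma adjusted p = 9.01e-10) and 7323 and 7661 against 11382 and 11758 in Nanog-cKO cells (0.63, limma adjusted p = 2.77e-10). The last 2 values are at the threshold of a call and fell below it without replicate 2 of either Sox2-cKO group (0.58 and 0.59) or, in Nanog-cKO cells, without replicate 1 of the ESCs (0.59) or with median centring (0.5998). The alpha subunit Eif2s1 changed by -0.12, 0.16 and 0.30 and did not pass the test in Oct4-cKO cells. Eif2d, which can deliver tRNA without GTP and acts in ribosome recycling, fell in all 3 lines and most in Nanog-cKO cells (2670.4 and 2689 to 1478 and 1380.5, log2 fold change -0.91).

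The 5 subunits of the exchange factor eIF2B were split. In Oct4-cKO cells 3 fell and none rose, in Sox2-cKO cells 1 rose, and in Nanog-cKO cells 3 fell and Eif2b3, the gamma subunit, was called higher (475 and 506 to 784 and 781, log2 fold change 0.67, limma adjusted p = 5.96e-08). The median over the 5 was -0.16, -0.03 and -0.31.

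The 14 genes of eIF3, the scaffold of the small-subunit complex, divided by subunit. In the Oct4-, Sox2- and Nanog-cKO conversions 5, 7 and 5 of them rose and 6, 3 and 5 fell, where 21.4%, 17.8% and 20.8% of all genes rose and 22.6%, 18.7% and 21.9% fell. Eif3f, Eif3i and Eif3m rose in each line, between 0.29 and 0.50 on the log2 scale, and Eif3d and Eif3h rose by 0.19 or less. The core subunit genes Eif3a and Eif3b fell in each line, as did Eif3l. Eif3b was 7175 and 7397 in Oct4-cKO ESCs and 4656 and 4653 in L-EPSCs (-0.65), 6196 and 6039.7 against 4937 and 5135 in Sox2-cKO cells (-0.28), and 7663 and 7478 against 4974 and 4837 in Nanog-cKO cells (-0.63, and -0.59, below a call, with TMM scaling). Eif3l was 5621 and 5636 against 3252 and 3189.8 in Oct4-cKO cells (-0.81, limma adjusted p = 2.45e-12), and its log2 fold change was -0.35 and -0.78 in the Sox2-cKO and Nanog-cKO lines. Eif3a, the largest subunit, fell by 0.23, 0.08 and 0.18. Of the near-identical pair Eif3j1 and Eif3j2, Eif3j2 was called lower in Nanog-cKO cells (-0.76) while Eif3j1 was at 0.06 (limma adjusted p = 0.479), and 90.8% of the windows of Eif3j2 occur in another gene.

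Among Eif5b, Eif6 and the eIF5A genes, Eif6 and Eif5a2 moved most. Eif6 fell in all 3 lines. It was 1523 and 1499.7 in Oct4-cKO ESCs and 835 and 835 in L-EPSCs (-0.86), 1175 and 1206 against 939 and 879 in Sox2-cKO cells (-0.39), and 1837 and 1884 against 970.3 and 1019.6 in Nanog-cKO cells (-0.90). Eif5b fell in Oct4-cKO and Sox2-cKO cells (-0.39 and -0.38) and rose by 0.11 in Nanog-cKO cells. The paralogs of eIF5A diverged. Eif5a2 rose in all 3 lines (265 and 283 to 500.5 and 461 in Oct4-cKO cells, and log2 fold changes of 0.81, 0.53 and 0.58), while Eif5a changed by -0.37, -0.03 (limma adjusted p = 0.567) and -0.33. Per kilobase Eif5a was among the 2 most abundant members and Eif5a2 among the lowest.

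The Eif1ad genes, copies with an eIF1A domain, were low and differed in direction between lines. Eif1ad8 was 175 and 202 in Oct4-cKO ESCs and 77.2 and 101.5 in L-EPSCs (-1.08), and 10.5 and 10.1 in Nanog-cKO ESCs against 46.9 and 56.1 in L-EPSCs (2.21). Eif1ad3 had log2 fold changes of -0.83, -1.22 and 1.14 in the Oct4-, Sox2- and Nanog-cKO lines. Eif1ad7 was 48.5 and 48.6 in Sox2-cKO ESCs against 8.64 and 21.9 in L-EPSCs (-1.73), and did not pass the test in the other lines. Several of these calls rested on a single library: Eif1ad3 in Oct4-cKO cells without L-EPSC replicate 2 (limma adjusted p = 0.0817) or ESC replicate 1 (0.0568), Eif1ad7 in Sox2-cKO cells without L-EPSC replicate 1 (0.0526), and Eif1ad8 in Sox2-cKO cells without L-EPSC replicate 2 (0.159), ESC replicate 1 (0.0594) or ESC replicate 2 (0.056). Eif1ad, a more distant gene, fell in all 3 lines, and its call in Oct4-cKO cells (-0.64) was lost without ESC replicate 1 (-0.57).

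**Figure D3:**
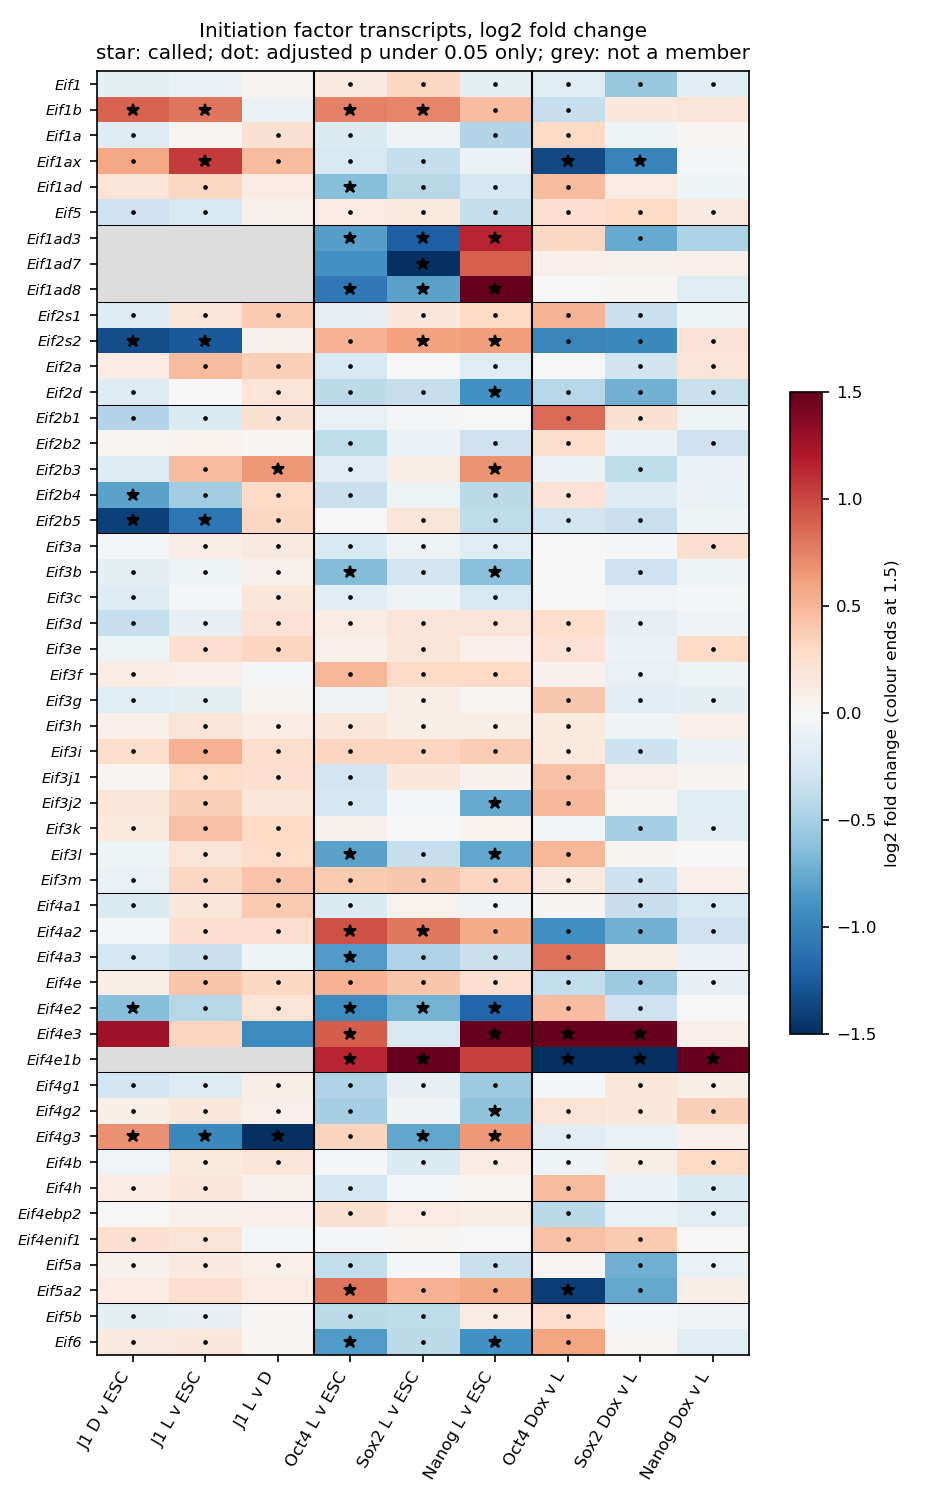
Log2 fold change of every member (rows, grouped by role) in 9 comparisons (columns: 3 of J1, then 3 conversions, then 3 Dox treatments), with colour ending at 1.5 in either direction, a star for a call, a dot for an adjusted p under 0.05 alone and grey where a gene was not a member in that table. Eif4a2 is raised in the 3 conversions (0.96, 0.79 and 0.56) and lowered in the 3 Dox columns (-0.92, -0.72 and -0.31), and most eIF3 rows are pale.

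In J1 cells fewer members were called. For D-EPSCs against ESCs 2 of 46 members (4.35%) were called higher and 4 (8.70%) lower, against 10.8% and 9.98% of all genes, and 11 rose and 18 fell (23.9% and 39.1%, against 18.7% and 19.3%). For L-EPSCs against ESCs 2 (4.35%) were called higher and 3 (6.52%) lower, against 8.8% and 11.5%, and 24 rose and 13 fell (52.2% and 28.3%, against 18.5% and 20.9%). For L-EPSCs against D-EPSCs 1 (2.17%) was called in each direction, against 4.8% and 8.58%, and 28 rose and 1 fell (60.9% and 2.17%, against 15.1% and 15.4%). The member that fell there was Eif4g3. The median log2 fold change of the members was -0.033, 0.15 and 0.15, and the 3 comparisons share their libraries. The fibroblast and macrophage sums given above moved with these states. So did the pluripotency sum, at 70490.1 and 70677 in ESCs, 39908 and 39690.1 in D-EPSCs and 49323 and 49285 in L-EPSCs, and the primitive endoderm sum, at 15317 and 15164 in ESCs, 12821 and 13207 in D-EPSCs and 7247 and 7289 in L-EPSCs. The primitive endoderm list shares Pdgfra with the fibroblast list, so the sums are not independent. Gata6, the only primitive endoderm gene read singly here, went against its sum, from 17.1 and 24.9 in ESCs to 45.2 and 35.6 in L-EPSCs. The trophoblast sum was 1509.7 and 1441 in ESCs, 1059 and 1060.2 in D-EPSCs and 1129 and 1091 in L-EPSCs. The part of these markers in the results was not tested.

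The widest J1 differences from ESCs that were called were in Eif2b5 and Eif2s2. Eif2s2 was 15435 and 14975 in ESCs, 6227 and 5901 in D-EPSCs and 6366 and 6347 in L-EPSCs. Both EPSC types were below ESCs without overlap, with differences from ESCs on the log2 scale of -1.33 (limma: SE 0.030 and adjusted p = 5.98e-08) and -1.26 (limma: SE 0.030 and adjusted p = 9.85e-08), and they did not differ by the test (0.07, limma adjusted p = 0.127). Eif2b5, the catalytic epsilon subunit of eIF2B, was 5341 and 5323 in ESCs, 2054 and 1992 in D-EPSCs and 2586 and 2438 in L-EPSCs, differing from ESCs on the log2 scale by -1.40 (limma: SE 0.036 and adjusted p = 1.09e-07) and -1.09 (limma: SE 0.036 and adjusted p = 4.43e-07). Eif2b4, the delta subunit, was 1203 and 1201 in ESCs, 640.3 and 738 in D-EPSCs and 859 and 815 in L-EPSCs, and was called only in D-EPSCs (-0.81). Whether that differs from L-EPSCs is answered by L-EPSCs against D-EPSCs, where Eif2b4 rose by 0.28 (limma adjusted p = 0.0191).

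Eif4g3 separated the EPSC types. It was 1316 and 1288 in ESCs, 2082 and 2096 in D-EPSCs and 694 and 639 in L-EPSCs, so that D-EPSCs were above and L-EPSCs below ESCs (0.68 and -0.97). L-EPSCs against D-EPSCs gave -1.65 on the log2 scale (limma: SE 0.050 and adjusted p = 6.20e-07). Eif1ax, an X-linked gene for eIF1A, rose in the order 1380.3 and 1351 in ESCs, 2008 and 2080.4 in D-EPSCs and 2942 and 2729 in L-EPSCs (0.58 and 1.05 against ESCs, and 0.47 between the EPSC types), while its paralog Eif1a changed by -0.20, 0.03 and 0.23. Eif1b was higher in both EPSC types (201.3 and 198 against 382 and 360.3 and against 361 and 338, with log2 fold changes of 0.89 and 0.80). Eif4e2 was called lower in D-EPSCs (-0.63), a call lost without D-EPSC replicate 2 (-0.57), and fell by 0.43 in L-EPSCs. Eif2b3 was called higher when L-EPSCs were set against D-EPSCs (0.66), a call lost without D-EPSC replicate 1 (0.57).

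Of the 14 eIF3 genes in J1 L-EPSCs, 9 rose and 3 fell against ESCs (18.5% and 20.9% of all genes), and 11 rose and none fell against D-EPSCs (15.1% and 15.4% of all genes). Their median log2 fold change was 0.19 and 0.20, beside 0.15 and 0.15 for all members. No eIF3 gene was called in J1, and the widest was Eif3i (2431 and 2402 in ESCs, 3472 and 3495 in L-EPSCs, log2 fold change 0.53). Eif4a2 did not pass the test in D-EPSCs (-0.02, limma adjusted p = 0.579) and rose in L-EPSCs (8034 and 7965 to 9371 and 9456, 0.23, limma adjusted p = 5.05e-05). Eif4a1 was 27749.6 and 27219 in ESCs, 23637 and 23539 in D-EPSCs and 31000.5 and 30856 in L-EPSCs, so that it fell by 0.22 and rose by 0.17.

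**Figure D4:**
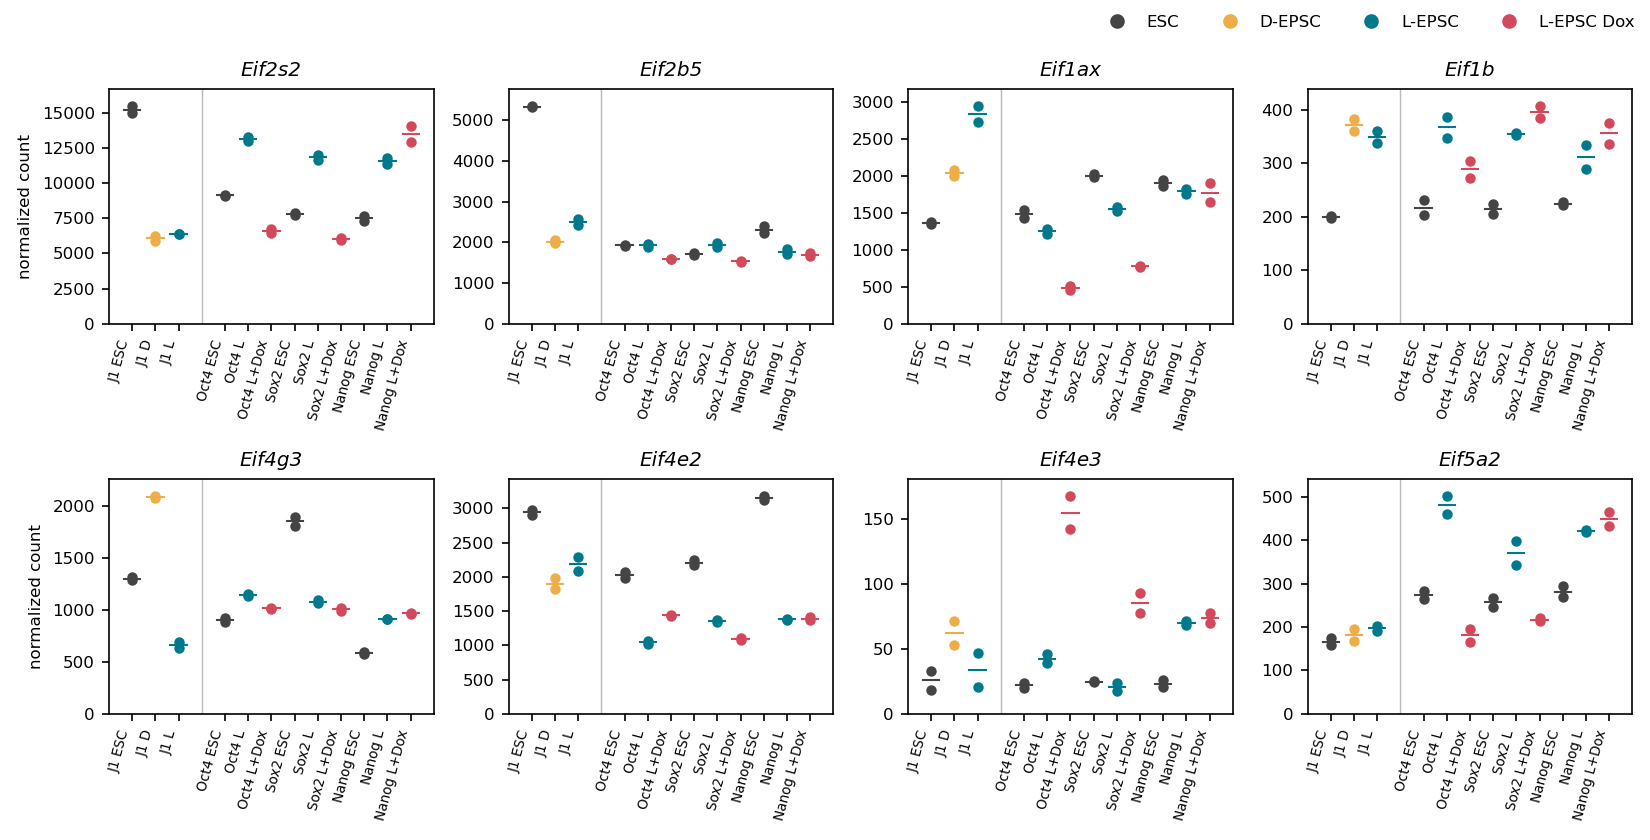
Normalized counts of 8 members in each library of 12 groups, with a line at the mean of 2 libraries and a grey line between the separately normalized tables, on axes that start at 0. Among the J1 groups, ESCs stand highest for Eif2s2 (15435 and 14975) and Eif2b5 (5341 and 5323), and Eif1ax falls to 519 and 464 in Oct4-cKO L-EPSCs with Dox.

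The step from ESC to L-EPSC can be set side by side in 4 lines, since the J1 and tet-off libraries are separate samples. The starting cultures were not alike. The medium of the tet-off ESCs was not stated. The fibroblast sum went from 89607 and 91702 to 18714 and 19302 in J1, and lay between 106 and 492 in the tet-off libraries. The part of these differences in the patterns below was not tested. Of 46 members tested in both tables, 6 (13%, against 3.07% of 20812 genes) rose in all 4 lines: Eif1b, Eif3h, Eif3i, Eif3m, Eif4a2 and Eif4e. A further 4 (8.70%, against 3.2%) fell in all 4: Eif3b, Eif4a3, Eif4e2 and Eif4g1. In 2 members (4.35%, against 4.05%), Eif2s2 and Eif3d, the tet-off lines rose and J1 fell. In 4 (8.70%, against 3.42%), Eif1ad, Eif3a, Eif3l and Eif6, the tet-off lines fell and J1 rose. Eif2s2 showed the widest gap, with log2 fold changes of 0.52, 0.60 and 0.63 in the tet-off lines and -1.26 in J1. By level, its J1 ESC value of 15435 and 14975 stands beside 7323 to 9155 in the tet-off ESCs, but the tables were scaled separately and this gap was not tested.

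Switching off the transgene in L-EPSCs changed few members by more than 2-fold, the threshold used for Dox (a log2 fold change beyond 1). In Oct4-cKO cells 1 member (2%) was called higher and 3 (6%) lower, against 8.53% and 10.8% of all genes. In Sox2-cKO cells 1 (2%) and 2 (4%) were called, against 7.79% and 7.32%, and in Nanog-cKO cells 1 (2%) and 0, against 2.8% and 2.59%. By the adjusted p alone the directions differed: 24 rose and 13 fell in Oct4-cKO cells (48% and 26%, against 21.4% and 22% of all genes), 7 rose and 23 fell in Sox2-cKO cells (14% and 46%, against 19.8% and 19.9%), and 9 rose and 11 fell in Nanog-cKO cells (18% and 22%, against 12.1% and 12.6%). The median log2 fold change was 0.11, -0.10 and -0.058, and with median centring 0.046, -0.17 and -0.049. These counts depend on the scaling. With median centring 19 rose and 15 fell in Oct4-cKO cells, 6 and 32 in Sox2-cKO cells, and 9 and 11 in Nanog-cKO cells. In all 3 lines Eif4g2 and Eif5 rose (4%, against 4.07% of all genes) and Eif1, Eif2d, Eif4a2 and Eif4e fell (8%, against 4.81%).

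Markers of differentiation moved with Dox in the Oct4-cKO and Sox2-cKO cells. The sum of 8 pluripotency markers went from 44220 and 43753 to 4792 and 4993 in Oct4-cKO cells, from 46658 and 46300.3 to 10047.6 and 9767 in Sox2-cKO cells and from 47065 and 46976 to 30339 and 29743 in Nanog-cKO cells. The sum of 8 trophoblast markers went from 5807 and 5686 to 30360.5 and 29896 in Oct4-cKO cells, from 3441 and 3512 to 13943 and 14063 in Sox2-cKO cells and from 3016 and 3022 to 2834 and 2851 in Nanog-cKO cells. The primitive endoderm sum went from 19202 and 19316 to 8866 and 8690.4, from 11475 and 11301 to 6606 and 6578, and from 4534 and 4532 to 3946 and 3883 in the same order. The part of these markers in the changes of the members was not tested.

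Eif1ax and Eif2s2 fell with Dox in Oct4-cKO and Sox2-cKO cells. Eif1ax went from 1284 and 1222 to 519 and 464 in Oct4-cKO cells (log2 fold change -1.35, with SE 0.065 and adjusted p = 4.02e-11 by limma) and from 1533 and 1588 to 789 and 767 in Sox2-cKO cells (-1.0, with SE 0.065 and adjusted p = 2.42e-09 by limma). The second value sits at the threshold and is below it without replicate 2 of either Sox2-cKO L-EPSC group (-0.98 each). In Nanog-cKO cells it went from 1764 and 1830.1 to 1643 and 1908 and did not pass the test (-0.02). Its autosomal paralog Eif1a rose by 0.30 in Oct4-cKO cells and was at -0.06 and 0.03 in the other lines. Eif2s2 went from 13271 and 12959.6 to 6480.0 and 6721 in Oct4-cKO cells (-0.99, with SE 0.035 and adjusted p = 7.43e-13 by limma) and from 11641 and 11989.6 to 5986 and 6066 in Sox2-cKO cells (-0.97, with SE 0.035 and adjusted p = 1.84e-12 by limma). With median centring the Sox2-cKO value passed the threshold (-1.04). In Nanog-cKO cells it rose from 11382 and 11758 to 12918 and 14042 (0.22, limma adjusted p = 1.75e-04). The difference between lines passed limma for both genes: the Dox effect in Oct4-cKO minus that in Nanog-cKO cells was -1.33 for Eif1ax and -1.21 for Eif2s2.

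Eif5a2 and the rarer cap binders were the other members called with Dox. Eif5a2 went from 500.5 and 461 to 166 and 195 in Oct4-cKO cells (-1.41, with SE 0.097 and adjusted p = 3.28e-09 by limma), fell by 0.77 in Sox2-cKO cells and was at 0.09 (limma adjusted p = 0.605) in Nanog-cKO cells. Eif4e3 rose in Oct4-cKO cells from 39.0 and 45.8 to 143 and 168 (1.85, limma adjusted p = 4.94e-06) and in Sox2-cKO cells from 23.8 and 18 to 93.2 and 77.7 (1.99, limma adjusted p = 2.60e-06). In Nanog-cKO cells it was 71.4 and 68.3 without Dox and 70.3 and 77.6 with it. Eif4e1b went from 36 and 29 reads to 0 and 0 in Oct4-cKO cells, at least 8.55-fold lower with 3 reads per library as the limit of a count of 0. In Sox2-cKO cells it went from 35 and 37 reads to 0 and 0, at least 15.2-fold lower. In Nanog-cKO cells it went from 1 and 1 to 13 and 8 reads, a ratio of 9.94 (95% counting interval 2.43 to 87.4). Its membership rests on its high counts in untreated Oct4-cKO and Sox2-cKO L-EPSCs, so its falls with Dox are not independent of the rule.

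By the adjusted p alone, 9 of the 14 eIF3 genes rose with Dox in Oct4-cKO cells and none fell, against 21.4% and 22% of all genes, and in Sox2-cKO cells none rose and 7 fell, against 19.8% and 19.9%. Their medians were 0.14 and -0.10, beside 0.11 and -0.10 for all members, and no difference between roles was tested. The eIF3 counts were not redone with median centring, which moved the counts over all members as given above. Eif2b1, the alpha subunit of eIF2B, rose in Oct4-cKO cells from 624 and 596 to 1140.1 and 1067 (0.85) and by 0.23 in Sox2-cKO cells. Eif4a3 rose in Oct4-cKO cells from 1311 and 1311 to 2322 and 2345 (0.83) and was at 0.10 (limma adjusted p = 0.0666) in Sox2-cKO cells. Eif6 rose by 0.60 in Oct4-cKO cells and was at 0.02 in Sox2-cKO cells. Eif5a fell in Sox2-cKO cells from 11218 and 11065 to 6744 and 6753 (-0.72, limma adjusted p = 1.27e-11) and was at 0.01 in Oct4-cKO cells. Eif4enif1, an eIF4E transporter that sends messages to storage bodies, rose by 0.44 and 0.39, and Eif4ebp2, a repressor that blocks eIF4E, fell by 0.40 in Oct4-cKO cells.

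In Nanog-cKO cells the changes with Dox were small. Nanog RNA itself was reduced there and not lost, at 3166 and 3112 with Dox against 9119 and 8847 without it. Beside Eif4e1b, the widest that passed were rises of Eif4g2 (10136 and 9931 to 12714 and 13089.6, log2 fold change 0.36) and Eif4b (13955 and 13868 to 17186 and 17047, 0.30), and falls of Eif2d (-0.34), Eif4a2 and Eif2b2 (both -0.31). Eif4b encodes the cofactor that stimulates eIF4A, and it was at -0.06 and 0.09 in the Oct4-cKO and Sox2-cKO cells.

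Differences between lines were tested as interaction terms of the same fit. A conversion difference needed an adjusted p under 0.05 and a size beyond 0.6. Between Oct4-cKO and Sox2-cKO cells 3 of 50 members differed, against 10% of all genes. The counts were 4 of 50 between Oct4-cKO and Nanog-cKO cells (against 14.7%) and 7 of 50 between Sox2-cKO and Nanog-cKO cells (against 14.8%). For Dox, with a difference beyond 1, the counts of 50 were 1 (against 6.81%), 5 (against 14.8%) and 3 (against 11.3%). In no contrast was the share of members higher than that of all genes. The Eif1ad copies, Eif4e1b and Eif4e3 made up most of the conversion differences. The others were Eif4g3, Eif2b3 and Eif3j2, whose levels over the tet-off groups averaged 95.4, 92.8 and 194 normalized counts per kilobase. The conversion effect on Eif4g3 in Oct4-cKO minus that in Sox2-cKO cells was 1.12 (limma adjusted p = 2.53e-09).

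Genes that act beside the initiation factors are given by their counts, to be read against all genes tested, of which 21.4%, 17.8% and 20.8% rose and 22.6%, 18.7% and 21.9% fell in the Oct4-, Sox2- and Nanog-cKO conversions, and 21.4%, 19.8% and 12.1% rose and 22%, 19.9% and 12.6% fell with Dox. Of 10 elongation and release factors, 5, 7 and 6 rose and 2, 3 and 4 fell in the Oct4-, Sox2- and Nanog-cKO conversions, and with Dox 3, 0 and 2 rose and 5, 9 and 2 fell. Eef1a1, the tRNA carrier of elongation, rose by 0.45, 0.38 and 0.38 in the conversions, and Eef2k, the kinase that inhibits eEF2, was called lower with Dox in Oct4-cKO and Sox2-cKO cells (-1.21 and -1.08). Of 15 genes of mTORC1 and cap control, 7 rose in each conversion and 6, 5 and 6 fell. Ddit4, an inhibitor of mTORC1, was called higher in all 3 conversions (1.99, 1.41 and 1.85). Eif4ebp1, the best-known eIF4E repressor and no member here, rose by 0.49, 0.93 and 0.60 and fell with Dox by 0.84 and 0.93 in Oct4-cKO and Sox2-cKO cells, with -0.09 (limma adjusted p = 0.18) in Nanog-cKO cells. In J1 it went the other way, by -0.47 in D-EPSCs and -0.68 in L-EPSCs against ESCs, the second of which was called.

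Of 7 poly(A) and start codon helpers, 3 rose in each conversion and 3, 2 and 2 fell, and Pabpc1, the poly(A)-binding protein that contacts eIF4G, fell with Dox by 0.64 and 0.48 in Oct4-cKO and Sox2-cKO cells. Of 6 kinases and phosphatases of eIF2 alpha, 2, 2 and 3 rose and 2 fell in each conversion, and with Dox 2, 5 and 1 rose and 0, 0 and 1 fell. Eif2ak2, the kinase activated by double-stranded RNA, was called higher with Dox in Oct4-cKO and Sox2-cKO cells (2.19 and 1.65) and rose by 0.66 in Nanog-cKO cells. Eif2ak1, the heme-regulated kinase, fell in the conversion of all 3 lines (-1.08, -0.41 and -0.76) and in J1 L-EPSCs (-0.68).

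Promoter windows from RefSeq (GRCm38.p6, 250 bases before to 50 after the start) were found for 37 of the 50 members. The E box CACGTG, which reads the same on both strands, occurred in 10 of the 37 (27.0%) and in 2187 of 27025 genes with a window (8.09%). The wider set is every gene with a window, whether expressed here or not. The shares are therefore not matched for expression or base content. The amino acid response element, searched as TTGCATCA and TGATGCAA, occurred in none of the 37 and in 279 genes (1.03%). Of the 10 members that rose in all 3 conversions 8 had a window and 4 held an E box, of the 9 that fell 8 had a window and 2 held one, and of the other 31 members 21 had a window and 4 held one. The windows of 30 bases around these boxes in the members that moved together are shown, with the box in capitals and on the strand of the gene.
Eif1b, rose, chr9:120492570-120492599, plus strand: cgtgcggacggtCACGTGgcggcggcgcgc
Eif3f, rose, chr7:108934335-108934364, plus strand: caagatatgattCACGTGgtataaatttag
Eif4e, rose, chr3:138527192-138527221, plus strand: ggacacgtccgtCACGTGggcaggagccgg
Eif5a2, rose, chr3:28781148-28781177, plus strand: cagggcgagcttCACGTGacggggcgggac
Eif3a, fell, chr19:60790654-60790683, minus strand: ccgcgagggaatCACGTGgttccttccttt
Eif4g1, fell, chr16:20672661-20672690, plus strand: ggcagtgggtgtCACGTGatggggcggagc
Eif4e, Eif5a2 and Eif4g1 each held 2 such boxes, of which the one shown is the nearer to the start for Eif4e and Eif5a2 and the upstream one for Eif4g1. A match describes the letters of the window only.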

How the data were processed

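The authors trimmed read pairs with Trim Galore 0.6.4, aligned them with STAR 2.7.9a to mm9 (NCBIM37.67), counted reads per gene with HTSeq 0.11.2 and divided the counts by a DESeq2 size factor. The deposited values, treated as signal, are these normalized counts, 1 column per library and 1 table for each experiment, and 100% of values came back as whole reads within 0.1 read. Depth ran from 10807631 to 15069899 reads on genes.

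Genes with more than 1 read (21533 in the J1 table, 24007 in the tet-off table) were tested with limma 3.58.1 (R 4.3.3) on log2(normalized count + 1) with a mean-variance trend, 1 fit per table over all its groups, and Benjamini-Hochberg adjustment over all genes. The pseudocount understates the change of low genes. On simulated data limma recovered 79% of 2-fold changes at 20900 genes of the J1 table and 91% at 23371 genes of the tet-off table. Groups came from the sample labels. The ratio of Eif4a2 to Eif4a1 was tested by exact permutation.

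The text names Eif4a1 and Eif4a2 in every group, called members, the 3 widest rises and falls of a comparison, paralog sets, and role and pathway groups by counts. The members and lists were chosen with earlier results of these data known. Alternatives were count tests of the whole reads with edgeR 4.0.16 and DESeq2 1.42.0, scaling by TMM or to the median gene, other pseudocounts, filters and fold thresholds, leaving out each library, and a replicate block. The block for the differences between lines was added after seeing the data.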

Additional observations from a re-analysis of the deposited data

Results flagged for a closer look

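Each value here is a difference between 2 lines in the effect of the same step, on the log2 scale, that passed limma's test of the difference itself and the fold threshold. As given above, no contrast held a larger share of members than of all genes. For the conversion from ESCs to L-EPSCs, Oct4-cKO minus Sox2-cKO was -2.59 for Eif4e1b, 1.15 for Eif4e3 and 1.12 for Eif4g3. Oct4-cKO minus Nanog-cKO was -1.98 for Eif1ad3, -1.81 for Eif1ad7, -3.29 for Eif1ad8 and -0.84 for Eif2b3. Sox2-cKO minus Nanog-cKO was -2.36 for Eif1ad3, -2.64 for Eif1ad7, -3.02 for Eif1ad8, 0.74 for Eif3j2, 2.71 for Eif4e1b, -1.79 for Eif4e3 and -1.42 for Eif4g3.

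For Dox, Oct4-cKO minus Sox2-cKO was 1.06 for Eif1ad3. Oct4-cKO minus Nanog-cKO was -1.33 for Eif1ax, -1.21 for Eif2s2, -7.35 for Eif4e1b, 1.77 for Eif4e3 and -1.5 for Eif5a2. Sox2-cKO minus Nanog-cKO was -1.19 for Eif2s2, -7.71 for Eif4e1b and 1.91 for Eif4e3. The fitted values of Eif4e1b depend on the pseudocount, since groups of 0 reads enter them. The Eif1ad copies and Eif3j2 share most or part of their sequence with other genes.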

How the results depend on the processing

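Of 189 alternative settings over 24 counts and ratios, 180 left the result within its limits and 9 moved it. A count was within its limits up to 1.5-fold from its main value, and a ratio wherever its sign was kept. The replicate block cannot change the mean difference of a ratio, so for the ratios that setting could not move the result. At a log2 threshold of 1 the members called fell to 2 for J1 D-EPSCs against ESCs, 3 for J1 L-EPSCs against ESCs, 1 for J1 L-EPSCs against D-EPSCs, and 2, 3 and 4 for the Oct4-, Sox2- and Nanog-cKO conversions. At 0.6 they became 8 and 9 for Dox in Oct4-cKO and Sox2-cKO cells. Leaving out a library gave 1 to 2 called members for J1 L-EPSCs against D-EPSCs, with 1 without D-EPSC replicate 1. The count test of edgeR on whole reads called 7, 5 and 3 members in the J1 comparisons in the order above, 14, 9 and 14 in the conversions and 4, 3 and 1 with Dox. Over the named members, 991 of 1020 settings left the call, or its absence, as it was, 27 lost the call, 2 gained it and none reversed a call. Direction was compared only where a member was called, so members not called may change sign between settings. Replicate numbers did not pair the samples (correlation of deviations between -0.028 and 0.016). With a replicate block 99 of 100 counts and calls, ratios aside, kept the call or stayed within the limits above. The exception was Eif4e1b in the Oct4-cKO conversion (adjusted p = 0.058, limma). With 2 libraries per group, members of few reads were limited by depth.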
